A study of Mus musculus with 2 samples.

Results

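The nuclear-encoded genes of the respiratory chain are described here in single cells from mouse melanoma. Genes were chosen by name, from the symbols of the complex I subunits (Nduf followed by a, b, c, s or v and a number), succinate dehydrogenase (Sdha to Sdhd), the Uqcr genes of complex III, the Cox4 to Cox8 genes of complex IV and the Atp5 genes of the ATP synthase, complex V. A gene also needed at least 100 UMIs (unique molecular identifiers, each standing for 1 captured RNA molecule) summed over both libraries. Of 31053 genes listed, 84 carry such a name and 80 reached the minimum, 37 in complex I, 4 in complex II, 8 in complex III, 15 in complex IV and 16 in complex V. The lowest genes kept were Ndufa4l2 with 516 UMIs and Cox6b2 with 557, and the 4 left out held 5 UMIs (Cox7b2), 2 (Cox8b), 1 (Cox8c) and 0 (a second gene identifier with the symbol Atp5o). At the upper end Cox8a held 308519 UMIs, and 74 of the 80 genes held at least 10000. The name rule places Ndufa4 and Ndufa4l2 in complex I, although Ndufa4 is known as a subunit of complex IV. It also takes in Atp5s, a coupling factor, and Cox7a2l, a factor that joins complexes III and IV.

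The cells came from tumours of the mouse melanoma line B16-F10, placed under the skin of the flank in 10-week-old female C57BL/6 wild-type mice. Leukocytes were enriched on Ficoll and sorted as CD45-positive cells that exclude the viability dye DAPI. One library came from control mice and the other from mice given an OX40 agonist, an antibody that stimulates a costimulatory receptor of T cells, and is called the treated or agonist library. All mice carried the same tumour line, and the sources used here do not give the agonist's dose, its timing or the number of mice pooled.

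The oxidative phosphorylation system passes electrons from NADH through complex I, or from succinate through complex II, to complex III and then, by cytochrome c, to complex IV, where oxygen is reduced. Complexes I, III and IV move protons out of the mitochondrial matrix, and the ATP synthase lets them back through its ring of c subunits while its head makes ATP. Mitochondrial DNA encodes 13 core subunits, and the cell nucleus encodes all others, including every subunit of complex II. Some complex IV subunits exist as tissue-type pairs, known from heart and muscle, lung or testis, and 3 nuclear genes (Atp5g1, Atp5g2 and Atp5g3) encode the same mature c subunit.

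In the control library 114026695 UMIs fell on 7187 barcodes at a median of 8927 each, and in the OX40 agonist library 118059108 UMIs on 8569 barcodes at a median of 7309. After filters on quality and doublets 6031 control and 7050 treated cells were kept, and marker genes placed 5222 and 6151 of them in 12 cell types. The 80 genes took 3.10% of all control UMIs and 3.32% of all treated UMIs. Barcode sequences shared by both libraries numbered 18. Each group is 1 library, so no difference has a replicate check and no test was run. Intervals in parentheses are 95% intervals for counting error only, and a pattern is read where it held in both libraries. Levels are in CPM, the UMIs of a gene per 1000000 UMIs of a cell type. Each UMI marks the 3′ end of a transcript, so CPM does not grow with gene length.

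Melanoma cells gave the largest share of their RNA to the chain and neutrophils the smallest, in both libraries. The 80 genes made up 4.48% (4.47 to 4.48) of the UMIs of melanoma cells in the control library and 4.67% (4.66 to 4.68) in the agonist library. CD8 T cells followed with 2.71% (2.70 to 2.72) and 2.85% (2.85 to 2.86), and mononuclear phagocytes, the monocytes and macrophages of the tumour, with 2.54% and 2.52%. These 3 types stood apart from each other in that order in both libraries. Conventional CD4 T cells (2.47% and 2.54%), regulatory T cells (2.43% and 2.54%), plasmacytoid dendritic cells (DCs; 2.33% and 2.51%), type 2 conventional DCs (2.40% and 2.42%), type 1 conventional DCs (2.37% and 2.41%) and NK cells (2.32% and 2.36%) lay close together. Their order, and that of the phagocytes next to them, was not separated in both libraries. Mature migratory DCs came next with 2.03% and 2.04%, B or plasma cells with 1.90% and 1.92%, and neutrophils last with 1.23% (1.16 to 1.30) and 0.875% (0.832 to 0.920).

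Melanoma cells also stood apart from CD8 T cells over single cells. Within melanoma cells the middle 50% of control cells lay between 4.01% and 4.94%, and of treated cells between 4.25% and 5.16%. The same range in CD8 T cells ran from 2.40% to 2.89% and from 2.51% to 3.04%, so these ranges did not overlap. In mononuclear phagocytes it ran from 1.98% to 2.81% and from 2.02% to 2.77%, which overlapped with CD8 T cells. Depth differed with the type: the median cell held 70650 and 65646 UMIs in melanoma cells, 12436 and 9886 in CD8 T cells, and 1814 and 1402 in neutrophils. With every cell thinned to 1000 UMIs, the ratio of melanoma cells to CD8 T cells was 1.71 and 1.70, beside 1.65 and 1.64 without thinning. Ribosomal protein genes took 7.91% and 5.09% of neutrophil UMIs against 27.5% and 34.2% in B or plasma cells. With mitochondrial and ribosomal protein genes left out of the denominator, the 80 genes made up 5.80% and 6.14% in melanoma cells, 3.78% and 4.03% in CD8 T cells, and 1.38% and 0.950% in neutrophils. Melanoma markers (Pmel, Mlana, Dct, Tyrp1, Tyr and Sox10) were part of the gates of both types. By these gates, the cells called melanoma carried the markers at 15500 and 14923 CPM summed, against 70.6 and 76.6 in CD8 T cells. Leukocyte markers (Ptprc, Coro1a and Laptm5) summed to 48.8 and 20.9 CPM in them, against 2979 and 2868 in CD8 T cells, although the sort selected for CD45, the product of Ptprc.

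**Figure D1:**
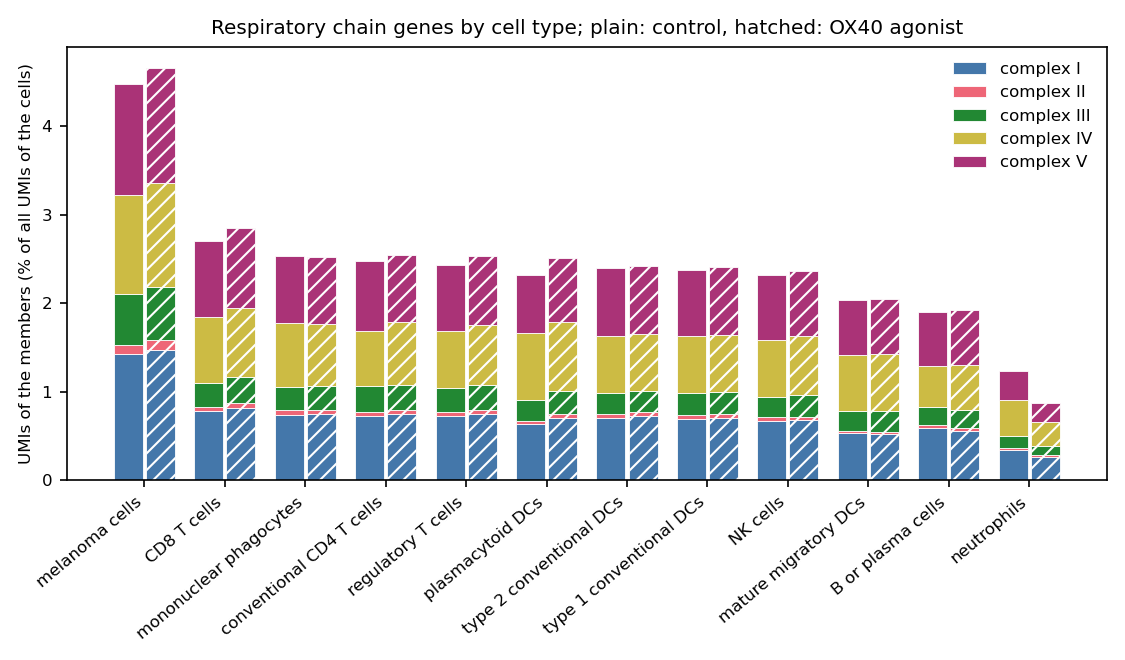
Share of UMIs, in percent, taken by the nuclear-encoded genes of each complex in 12 cell types, stacked by complex, with plain bars for the control library and hatched bars for the OX40 agonist library. Melanoma cells reached 4.48% and 4.67%, CD8 T cells 2.71% and 2.85%, and neutrophils 1.23% and 0.875%.

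The nuclear-encoded and mitochondrially encoded genes of the chain were in different proportion between types. For each UMI of the 13 mitochondrially encoded genes, melanoma cells held 1.51 and 1.42 UMIs of the 80 nuclear genes in the control and treated library. CD8 T cells held 0.995 and 1.07, mononuclear phagocytes 0.823 and 0.733, B or plasma cells 0.463 and 0.351, and neutrophils 0.395 and 0.309. Transcripts of mitochondrial DNA are also read as a sign of cell quality, and cells above 10% mitochondrial UMIs had been removed.

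Of the 80 genes, 66 had their highest level in melanoma cells in both libraries and 56 their lowest in neutrophils. The same counts were not made over all genes. Of all genes tested, 59.9% and 63.1% were higher in melanoma cells than in CD8 T cells. Most followed the order of the summed share, and the exceptions were few. Cox6a2, the muscle-type form of a complex IV subunit, was the most cell-type-specific gene, at 1757 and 1708 CPM in plasmacytoid DCs against 0.569 and 1.99 in the median cell type. Ndufa4 reached 1837 and 2143 CPM in melanoma cells against medians of 416 and 432, and Ndufa5, an accessory subunit of complex I, 504 and 533 against 116 and 103. The flattest genes were Atp5e, a small subunit of the ATP synthase head, Ndufa3, an accessory subunit of complex I, and Uqcrh, the hinge protein of complex III. Atp5e was highest in NK cells, at 948 and 996 CPM, against medians of 871 and 933. Uqcrh was highest in conventional CD4 T cells of the control library (958 CPM, median 735) and in mature migratory DCs of the treated library (934 CPM, median 824). Its lowest levels, in neutrophils, were 389 and 281 CPM, so it was not even across types.

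**Figure D2:**
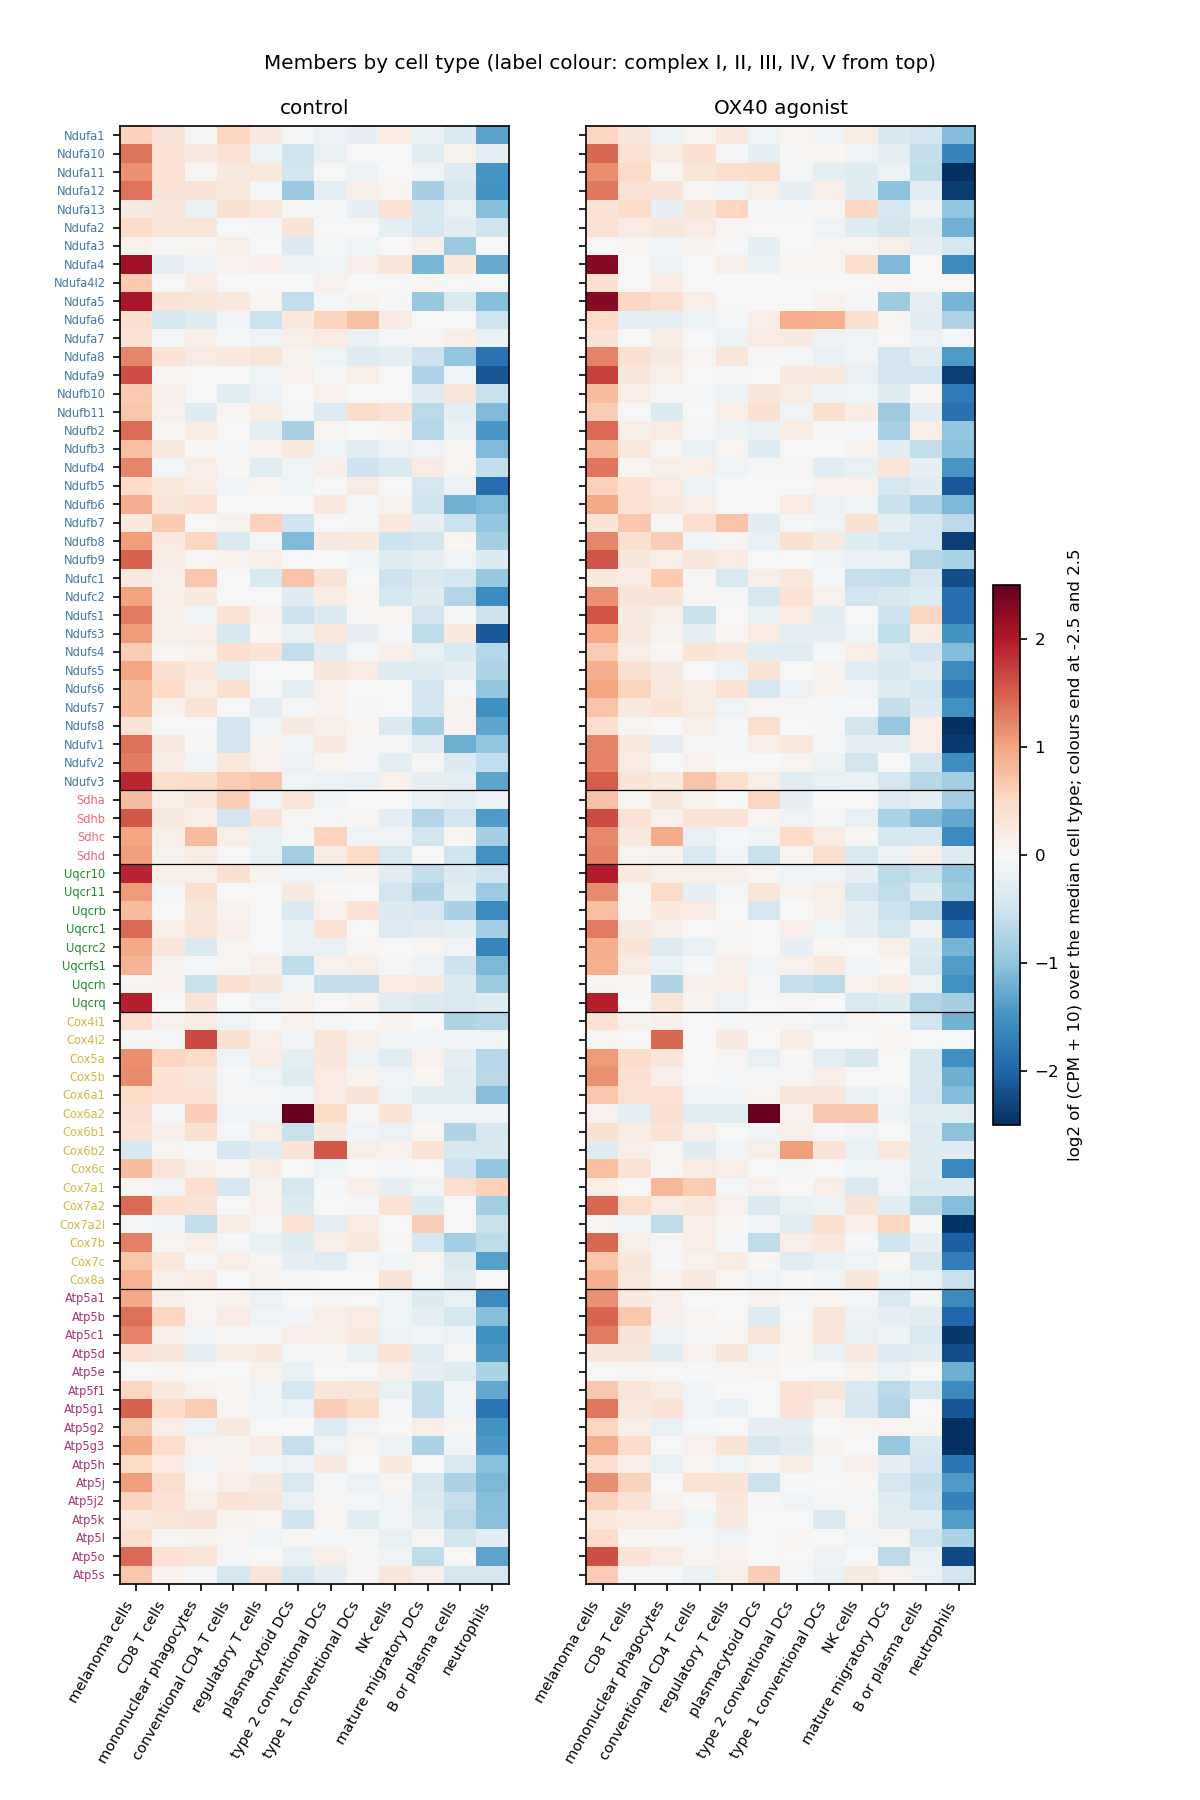
Level of the chain genes in 12 cell types and both libraries, as the log2 of CPM plus 10 over that of the median cell type, with genes grouped by complex. Most genes are highest in the melanoma columns and lowest in the neutrophil columns, and Cox6a2 stands out in plasmacytoid DCs (1757 and 1708 CPM).

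In melanoma cells compared with CD8 T cells, the chain was higher as a whole but unevenly by complex. The summed share was 1.65 times (1.65 to 1.66) that of CD8 T cells in the control library and 1.64 times (1.63 to 1.64) in the agonist library. By complex the ratio was 2.21 (2.16 to 2.26) and 2.29 (2.23 to 2.35) for complex II and 2.12 and 2.06 for complex III. It was 1.82 and 1.79 for complex I, 1.51 and 1.50 for complex IV, and 1.45 and 1.44 for the ATP synthase. The ratios of complexes II and III were thus above those of complexes IV and V in both libraries. The place of complex I rested on Ndufa4: with Ndufa4 and Ndufa4l2 counted in complex IV, a grouping chosen after seeing the data, the ratio was 1.66 and 1.61 for complex I and 1.67 and 1.68 for complex IV. Of 75 genes at 10 CPM or more in either type, 70 were higher in control melanoma cells and 71 in treated ones. Their median log2 ratio, taken after adding 10 CPM, was 0.68 and 0.64, against 0.21 and 0.27 over all 8476 genes at that level. By the count, 41 of 75 (54.7%) were at least 1.5-fold higher in both libraries, where 31.3% of all tested genes were, and 0 of 75 were at least 1.5-fold lower, where 16.6% of all were.

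Among the genes named for complex I, Ndufa4 stood furthest apart between melanoma and CD8 T cells. Ndufa5 came next, with ratios of 3.42 and 3.53. Ndufa4 stood at 1837 CPM in melanoma cells and 362 in CD8 T cells of the control library and at 2143 and 436 in the treated library, ratios of 5.07 (4.95 to 5.19) and 4.92 (4.79 to 5.05). Ndufv3, a small subunit of the NADH-binding module, stood at 819 against 296 CPM and at 725 against 312. The 7 core subunits, which carry the electrons through the complex, were all higher, Ndufs1 and Ndufv1 among them, 5 of them past 1.5-fold in both libraries. Their summed ratio was 1.95 and 1.83, above the 1.62 and 1.59 of the 28 accessory subunits without Ndufa4 and Ndufa4l2. Against this, Ndufb7, a membrane-arm subunit, was lower in melanoma cells, at 335 against 450 CPM and 357 against 463, log2 ratios of -0.42 and -0.37. Ndufa13 was close to even, at 506 against 530 CPM and 523 against 577.

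In complex II the iron-sulphur subunit Sdhb reached 615 and 628 CPM in melanoma cells against 238 and 254 in CD8 T cells. The flavoprotein Sdha reached only 121 and 122 CPM there, and the membrane anchors Sdhc and Sdhd 132 and 225 in the control library and 140 and 262 in the agonist library. The 4 subunits form the complex in equal numbers, so their transcripts were not in that proportion. In complex III the small subunits led. Uqcrq stood at 1504 against 384 CPM and 1535 against 398, ratios of 3.91 and 3.86, and Uqcr10 at 1205 against 346 and 1250 against 372, ratios of 3.49 and 3.36. Uqcrh did not follow them, at 769 against 789 CPM and 853 against 849. The core proteins Uqcrc1 and Uqcrc2 and the Rieske protein Uqcrfs1 were all past 1.5-fold, with summed ratios of 1.90 and 1.77.

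In complex IV the subunit Cox7b stood at 1031 against 445 CPM and 1248 against 503, while Cox6b1 was closer to even, at 657 against 564 and 688 against 601. In the ATP synthase the ratio was 1.46 and 1.43 for the catalytic head, 1.47 and 1.51 for the peripheral stalk, and 1.61 and 1.55 for the c ring. Within the head, Atp5c1, the central shaft, stood at 1019 against 481 CPM and 1019 against 510, and Atp5e was even, at 879 against 898 and 921 against 958. Within the stalk only Atp5o passed 1.5-fold in both libraries, at 788 against 372 CPM and 969 against 390.

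Genes of the same organelle, taken from lists, gave the setting. All 13 tricarboxylic acid cycle genes tested were higher in melanoma cells, 11 of them past 1.5-fold, with median log2 ratios of 0.97 and 0.86. Of 41 assembly factors of the complexes 31 and 32 were higher and 21 passed. Over all genes tested 59.9% and 63.1% were higher and 31.3% passed. The mitochondrially encoded genes did not move with them: 6 of 13 were higher in the control library and 10 of 13 in the agonist library, none past 1.5-fold, with medians of -0.02 and 0.19. Among the carriers, Vdac1, the outer-membrane channel, stood at 974 CPM against 147 in the control library. Ucp2, an inner-membrane carrier, went the other way, at 37.2 against 564 CPM and 32.3 against 494.

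Mononuclear phagocytes gave slightly less of their RNA to the chain than CD8 T cells, with most genes a little lower and few far apart. The ratio of phagocytes to CD8 T cells was 0.937 in the control library and 0.883 in the agonist library. All 5 genes of the ATP synthase head and all 4 of its peripheral stalk were lower in both libraries, none past 1.5-fold, with summed ratios of 0.835 and 0.798 for the head and 0.854 and 0.800 for the stalk. In complex III the small subunits had ratios of 0.994 and 0.942, and the core proteins and Rieske protein 0.867 and 0.772. Without Uqcrh, a choice made after seeing the data, complex III turned to 1.10 and 1.05. Complex II was higher in both libraries, but lower in both with mitochondrial and ribosomal protein genes left out of the denominator. Of 75 genes tested 29 and 19 were higher, where 40.4% and 42.0% of all genes were. Their median log2 ratios were -0.06 and -0.13 beside -0.17 and -0.14 over all genes. Those at least 1.5-fold higher in both libraries were 2 of 75 (Sdhc and Cox4i2), where 20.2% of all genes were, and those lower 3 of 75 (Uqcrh, Uqcrc2 and Ndufb7), where 21.0% were. Both counts are below the share of all genes. Sdhc stood at 114 CPM in phagocytes and 68.0 in CD8 T cells of the control library, and at 114 and 67.6 in the treated library. Uqcrh stood at 500 against 789 CPM and 488 against 849, and Uqcrc2 at 109 against 177 and 110 against 177.

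Mature migratory DCs, which have left the antigen-sampling state, were compared with type 2 conventional DCs. Their summed share was lower, at 0.848 times (0.836 to 0.860) that of type 2 DCs in the control library and 0.845 times (0.834 to 0.856) in the agonist library. The ratio was lowest for complex II (0.675 and 0.681) and complex I (0.751 and 0.716) and near even for complex III (0.945 and 0.965) and complex IV (0.972 and 0.992). Of 75 genes 63 and 66 were lower, with median log2 ratios of -0.36 and -0.37 beside -0.10 and -0.08 over all genes. At least 1.5-fold lower in both libraries were 18 of 75 (24.0%), where 19.5% of all genes were, a share near that of all genes. With cells thinned to 1000 UMIs the count was 10. At least 1.5-fold higher were 2 of 75, where 13.9% of all genes were. Those 2 were Cox7a2l, the factor that joins complexes III and IV, at 525 against 284 CPM and 475 against 269, and Uqcrh, at 860 against 486 and 934 against 552. The near-even sum of complex III rested on Uqcrh, without which it was 0.735 and 0.755: Uqcr11 stood at 145 against 261 CPM and 161 against 269, and Uqcrc1 at 108 against 174 and 104 against 159.

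The c ring genes parted between these DCs. Atp5g1 was lower in mature migratory DCs, at 224 against 526 CPM in the control library and 246 against 520 in the agonist library, log2 ratios of -1.20 and -1.05. Atp5g2 was higher, at 798 against 567 CPM and 811 against 655, log2 ratios of 0.48 and 0.30. Atp5g2 therefore gave 68.4% (66.7 to 70.1) and 67.9% (66.5 to 69.2) of the c ring UMIs of mature migratory DCs, against 42.6% (40.3 to 44.9) and 46.7% (44.5 to 49.0) in type 2 DCs. In melanoma cells the shares of Atp5g1, Atp5g2 and Atp5g3 were 36.9%, 43.8% and 19.3% in the control library and 38.8%, 41.5% and 19.7% in the agonist library. In CD8 T cells they were 29.0%, 49.2% and 21.8%, and 28.8%, 49.2% and 22.0%. The proteins differ in their import sequence, which is removed, so these are shares of transcripts and not of rings.

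Tissue-type isoforms were rare except in 1 place, Cox6a2 in plasmacytoid DCs. Cox6a2 (ENSMUSG00000030785) lies on chromosome 7 at 128205435 to 128206387 on the minus strand of GRCm38. In the control library 18 plasmacytoid DCs held 268 of its UMIs, 1757 CPM (1553 to 1981), and in the treated library 43 held 457, 1708 CPM (1555 to 1872). It was found in 16 of 18 and 36 of 43 cells. Its UMIs made up 87.6% (83.4 to 91.1) and 86.4% (83.2 to 89.2) of those of the pair with the common form Cox6a1, which stood at 249 and 269 CPM there. CD8 T cells, at median depths of 12436 and 9886 UMIs beside 8402 and 6168 in plasmacytoid DCs, had a UMI in 0.136% and 0.177% of cells, and 1 control cell held 87.5% of their 8 UMIs. No UMI was found in regulatory T cells, where 3 counts would be 2.57 and 1.77 CPM, nor in conventional CD4 T cells, B or plasma cells and neutrophils, whose depth allowed up to 29.9 CPM. Plasmacytoid DCs held 43.0% (39.1 to 47.0) and 55.6% (52.1 to 59.0) of all Cox6a2 UMIs in kept cells while being 0.298% and 0.610% of those cells. Their gate used markers that exclude Cox6a2. Plasmacytoid DC markers summed to 7390 and 7458 CPM in them, mononuclear phagocyte markers to 439 and 321, and T cell markers to 32.8 and 22.4. The gate itself asks for high values of the first and low values of the others, so these sums do not test their identity. Mononuclear phagocytes held a further 29.5% and 21.2% of its UMIs, at only 6.16 and 5.66 CPM, and melanoma cells 18.6% and 14.0%, at 3.74 and 2.94 CPM. Within the phagocytes C1q macrophages stood at 6.87 and 7.89 CPM, and control classical monocytes at 10.4 CPM, of which 1 cell held 95.8%. NK cells and type 1 conventional DCs of the treated library stood at 9.26 and 9.24 CPM, from 9 and 15 UMIs.

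**Figure D3:**
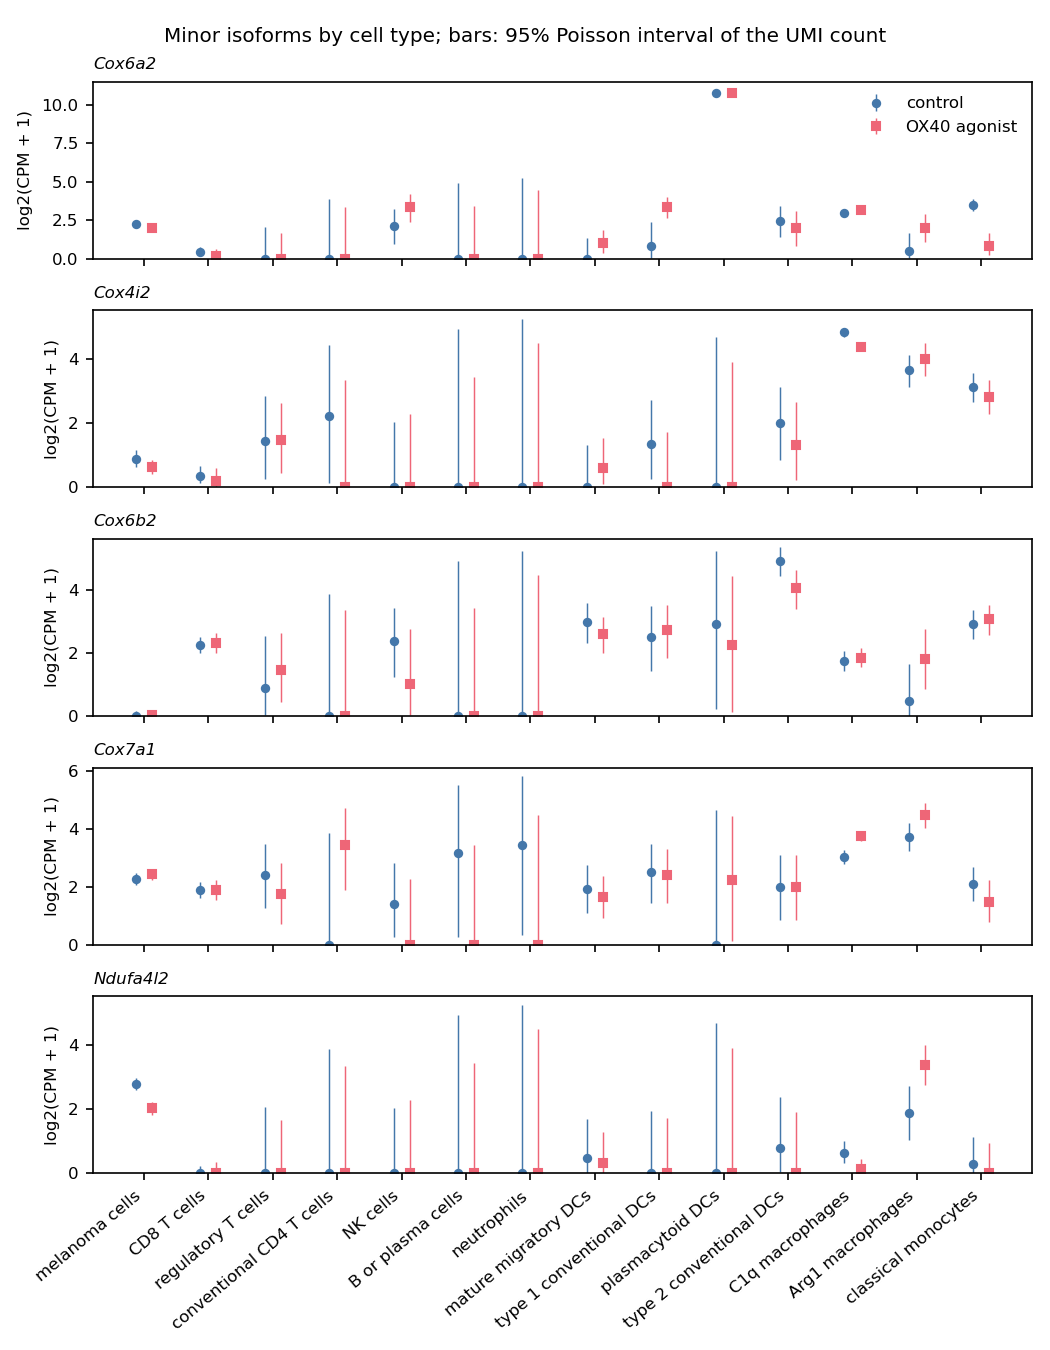
Level of 5 rarer isoforms (Cox6a2, Cox4i2, Cox6b2, Cox7a1 and Ndufa4l2) in each cell type and library, as log2 of CPM plus 1, with bars for 95% Poisson counting intervals. Cox6a2 in plasmacytoid DCs, at 1757 and 1708 CPM, is far above every other point.

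Cox4i2, the lung-type form of the largest nuclear complex IV subunit, was found mostly in macrophages. Mononuclear phagocytes held 83.4% (80.7 to 85.9) of its control UMIs and 89.9% (87.2 to 92.2) of its treated UMIs while being 39.0% and 41.1% of kept cells. Its level was highest in macrophages with C1q genes, at 27.2 CPM (24.7 to 29.8) and 19.6 CPM (17.7 to 21.7). It was lower in macrophages with Arg1 (11.4 and 14.9 CPM) and in classical monocytes (7.60 and 6.06 CPM). Even in C1q macrophages it was 2.20% and 1.54% of the sum with Cox4i1, with a UMI in 21.2% and 14.5% of cells. In CD8 T cells 0.409% and 0.177% of cells had a UMI, and the level there rested on 6 and 2 UMIs. The ratio of phagocytes to CD8 T cells was 84.6 (38.7 to 231) and 118 (32.4 to 974).

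Cox6b2, the testis-type form, was highest in type 2 conventional DCs, at 29.0 CPM (20.6 to 39.6) and 15.5 CPM (9.57 to 23.6), which was 4.59% and 2.62% of the sum with Cox6b1. CD8 T cells held 3.72 and 3.94 CPM, and melanoma cells 0 and 1 UMIs. Cox7a1, the heart and muscle form, was low everywhere, at 12.2 and 21.3 CPM in Arg1 macrophages, 7.16 and 12.4 in C1q macrophages and 3.80 and 4.37 in melanoma cells. Ndufa4l2, known to be induced in low oxygen, stood at 5.80 CPM (4.98 to 6.71) and 3.06 CPM (2.54 to 3.66) in melanoma cells, 0.315% and 0.143% of the sum with Ndufa4. Melanoma cells held 76.9% and 51.3% of its UMIs in kept cells. Ungated cells held 4.27% and 31.2% of them, beside 9.66% and 7.09% of the UMIs of all genes. In CD8 T cells it had no UMI, where 3 counts would be 0.136 and 0.219 CPM. Its 7 and 19 UMIs in Arg1 macrophages lay to 57.1% and 52.6% in 1 cell each, so no level is read from them.

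Macrophages were then compared by state. Arg1 macrophages, gated on Arg1, Spp1, Hilpda and Bnip3, gave less of their RNA to the chain than C1q macrophages, at 1.97% and 1.99% against 2.70% and 2.65%. The ratio was 0.729 (0.722 to 0.736) in the control library and 0.753 (0.745 to 0.760) in the agonist library. All complexes were lower, most of all complex II, at 0.526 (0.490 to 0.564) and 0.597 (0.553 to 0.645), followed by complex I (0.697 and 0.735), the ATP synthase (0.722 and 0.728), complex III (0.758 and 0.763) and complex IV (0.776 and 0.806). Of 76 genes 75 and 72 were lower, with median log2 ratios of -0.48 and -0.45. Over all genes the medians were -0.23 and -0.21, with 28.1% and 29.6% of genes higher. At least 1.5-fold lower in both libraries were 20 of 76 (26.3%), where 12.5% of all genes were. With the thresholds of the cell type gates doubled, and those of the Arg1 and C1q gates unchanged, 11 passed. None of the 76 was at least 1.5-fold higher, where 5.31% of all were.

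Sdha stood at 41.1 CPM in Arg1 and 98.3 in C1q macrophages of the control library and at 58.5 and 99.9 in the treated library. Sdhb stood at 129 against 261 CPM and 130 against 231, and Sdhc at 71.9 against 138 and 71.8 against 132, so 3 of the 4 complex II subunits passed 1.5-fold. Ndufa4 stood at 196 against 415 CPM and 223 against 429, and Atp5a1, the alpha subunit of the ATP synthase head, at 259 against 463 and 216 against 430. The core subunits of complex I were all lower, with summed ratios of 0.625 and 0.607. The few genes that did not follow were Cox7a1 (12.2 against 7.16 CPM and 21.3 against 12.4), Ndufv3 (293 against 312 and 309 against 304), Ndufa6 (172 against 181 and 186 against 181) and Ndufa1 (154 against 158 and 183 against 152). The mitochondrially encoded genes were lower too, 13 of 13 in both libraries, 2 of them past 1.5-fold. Of the tricarboxylic acid cycle genes 12 of 13 were lower and 3 passed, among them Fh1, fumarase, at 24.4 against 60.8 CPM and 20.3 against 56.6. Other features differed between these states. Genes of a hypoxia list were higher in Arg1 macrophages in 13 and 12 of 14 cases. Bnip3 stands both in the list and in the gate, so the list is not independent of the gate. The 14 genes of a cell cycle list were all lower, at 121 against 844 CPM and 43.6 against 804 summed, and the median depth was 8674 and 6416 UMIs against 14818 and 12601. With every cell thinned to 1000 UMIs the summed ratio was 0.706 and 0.733, and the part of the other features was not tested.

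CD8 T cells in the cell cycle had slightly more of the chain. Cells with at least 10 cell cycle UMIs per 10000 were called cycling, 472 of 1468 in the control library and 313 of 1128 in the agonist library, and 70 and 50 cells lay within 20% of that limit. The summed share was 1.04 times that of noncycling cells in both libraries. Complex II stood highest, at 1.22 and 1.13, then the ATP synthase at 1.08 and 1.07, while complex III was at 0.974 and 0.979, the latter turning to 1.06 with cells thinned to 1000 UMIs. Of 74 genes 56 and 54 were higher, with median log2 ratios of 0.11 and 0.09 beside 0.01 and 0.00 over all genes. A log2 ratio of at least 0.32, the threshold for all comparisons that follow, was reached upwards in both libraries by 3 of 74 (Ndufa5, Ndufa12 and Atp5o), where 13.8% of all genes were, and downwards by 2 of 74 (Ndufa6 and Cox7a2l), where 8.91% were. Both counts are below the share of all genes. Taken as a mean over cells the higher count was 7, and with thinned cells the counts were 5 and 0.

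The position of complex III rested on 1 gene, Uqcrh, at 667 against 904 CPM and 744 against 927. The sum of the 5 small subunits had ratios of 0.943 and 0.960, but without Uqcrh, a choice made after seeing the data, it had 1.08 (1.06 to 1.11) and 1.06 (1.03 to 1.09), and 4 of the 5 in the control and 3 in the agonist library were higher. Complex III as a whole without Uqcrh was at 1.09 and 1.06, and its core proteins and Rieske protein at 1.11 and 1.06. The core subunits of complex I had ratios of 1.10 and 1.12, with Ndufv1, the NADH-binding flavoprotein, at 92.5 against 73.2 CPM and 108 against 74.5. Ndufa5 stood at 174 against 122 CPM and 183 against 127, and Ndufa6 at 147 against 208 and 163 against 211. Cycling cells were deeper, at medians of 20666 and 17260 UMIs against 9743 and 7568, and with every cell thinned to 1000 UMIs the summed ratio was 1.08 and 1.10. Of the tricarboxylic acid cycle genes 12 of 13 were higher, 1 past the threshold.

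Melanoma cells were split at the median share of a hypoxia list, which holds no gene of the chain. The median was 17.0 UMIs per 10000 in the control library and 8.50 in the agonist library, so the 2 splits do not mark the same range, and 51 of 452 and 68 of 605 cells lay within 20% of it. The chain as a whole was close to even, but single genes, and complex II, parted in the same way in both libraries. The summed ratio of hypoxia-high to hypoxia-low cells was 0.937 (0.933 to 0.940) in the control library and 0.989 (0.986 to 0.992) in the agonist library. Complex II was lowest, at 0.726 (0.710 to 0.743) and 0.814 (0.799 to 0.829), and the ATP synthase was at 0.892 and 0.943. Complex IV was higher, at 1.04 and 1.07, though with cells thinned to 1000 UMIs the control value was 0.998. With Ndufa4 and Ndufa4l2 counted in complex IV it was 0.990 (0.983 to 0.996) and 1.02 (1.02 to 1.03), so its direction in the control library rests on where Ndufa4 is placed. Of 75 genes 58 and 42 were lower and 17 and 33 higher, where 39.7% and 40.3% of all genes were higher. Their median log2 ratios were -0.13 and -0.03 beside -0.08 and -0.06 over all genes. Past the threshold upwards in both libraries were 2 of 75 (Ndufv3 and Cox7a2l), where 7.10% of all genes were. Downwards 4 of 75 passed (Sdhb, Uqcrc1, Atp5g1 and Ndufs8), where 15.5% of all genes did. In both directions chain genes passed less often than genes in general.

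Ndufv3 was the gene furthest from the rest, at 1066 CPM in hypoxia-high against 625 in hypoxia-low cells of the control library and 959 against 533 in the treated library, ratios of 1.71 (1.66 to 1.75) and 1.80 (1.76 to 1.84). Cox7a2l stood at 405 against 264 CPM and 405 against 285. On the other side, Atp5g1 stood at 739 against 1144 CPM and 877 against 1187, Sdhb at 473 against 726 and 540 against 700, and Uqcrc1 at 301 against 433 and 322 against 413. Complex I held both kinds: Ndufs8, a core iron-sulphur subunit of complex I, stood at 146 against 202 CPM and 168 against 212 where Ndufv3 was higher. Atp5g2 was even, at 1176 against 1123 CPM and 1165 against 1083, so Atp5g1 gave 31.7% (31.2 to 32.2) of c ring UMIs in hypoxia-high and 40.2% (39.8 to 40.7) in hypoxia-low control cells, and 35.0% and 41.6% in treated cells. In complex IV, Cox8a stood at 1881 against 1635 CPM and 2067 against 1755, and Cox7c at 1037 against 933 and 1089 against 957.

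Genes near the chain moved in both directions. Higd1a, known as a factor of complex IV in low oxygen, stood at 1988 against 703 CPM and 1597 against 453, and Cyc1, cytochrome c1 of complex III, at 432 against 642 and 469 against 627. Of 42 assembly factors 34 and 31 were lower and 6 passed the threshold, where 15.5% of all genes passed it downwards. Ndufaf4 stood at 57.1 against 99.4 CPM and 68.1 against 106. Of the mitochondrially encoded genes 8 and 9 of 13 were higher, with mt-Co1 at 6922 against 4616 CPM and 6266 against 4558. The 14 cell cycle genes were all lower in hypoxia-high cells, at 1100 against 2268 CPM and 1359 against 2179 summed. Median depth was 63022 and 58084 UMIs against 81950 and 74032, and leukocyte markers stood at 0.564 against 0.429 and 0.208 against 0.210 UMIs per 10000. With every cell thinned to 1000 UMIs the log2 ratio was 0.78 and 0.72 for Ndufv3, 1.06 and 0.71 for Cox7a2l, -0.64 and -0.62 for Sdhb and -0.59 and -0.22 for Atp5g1. The part of the cell cycle in these ratios was not tested.

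**Figure D4:**
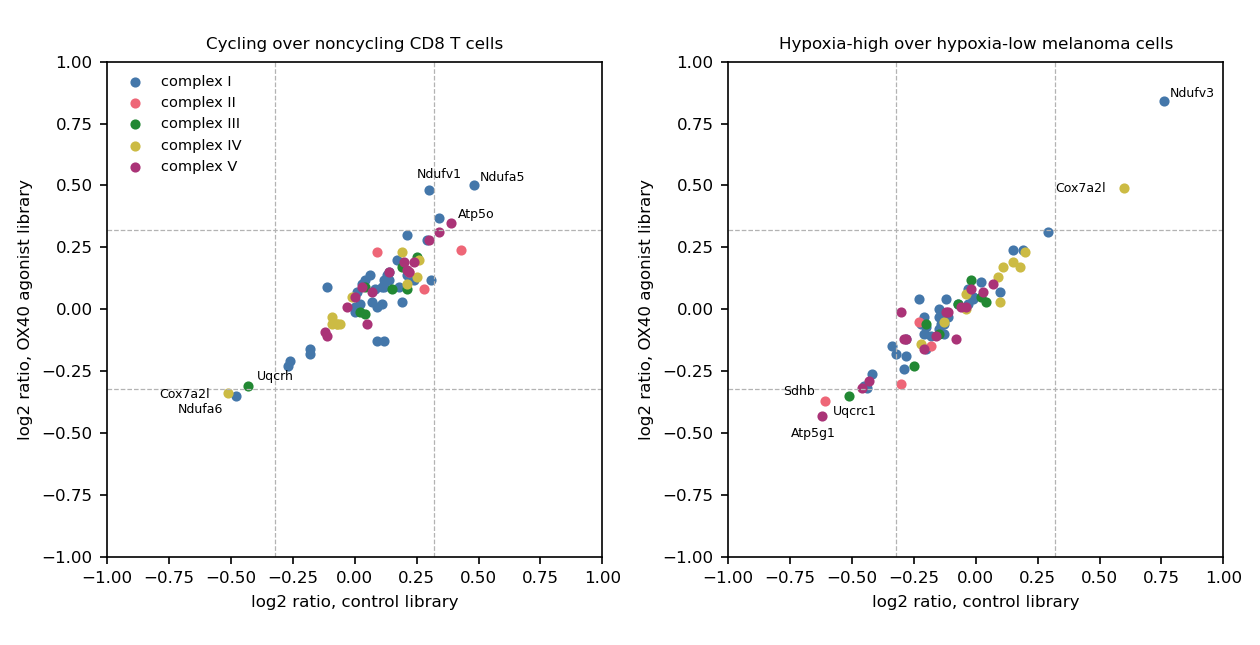
Log2 ratio of each gene in the control library (horizontal) against the OX40 agonist library (vertical), for cycling over noncycling CD8 T cells and for hypoxia-high over hypoxia-low melanoma cells, with dashed lines at 0.32 up and down. In the melanoma panel Ndufv3 (0.76 and 0.84) and Cox7a2l (0.60 and 0.49) lie at the upper right, and Atp5g1 (-0.62 and -0.43) and Sdhb (-0.61 and -0.37) at the lower left.

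Stretches before the transcription start are shown for the 2 genes that were higher and for 2 that were lower in hypoxia-high melanoma cells, since these members parted together in both libraries. They come from RefSeq promoter windows on GRCm38.p6, end at the first base outside annotated exons, run 5′ to 3′ on the gene's strand and carry matches to the searched motifs in capitals. Ndufv3 is taken from chr17:31519981-31520114 on the plus strand, Cox7a2l from chr17:83514334-83514483 on the minus strand, Atp5g1 from chr11:96075671-96075820 on the minus strand and Sdhb from chr4:140961053-140961202 on the plus strand.
Ndufv3: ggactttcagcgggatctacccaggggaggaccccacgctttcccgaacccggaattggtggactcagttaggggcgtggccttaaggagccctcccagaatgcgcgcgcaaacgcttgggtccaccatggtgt
Cox7a2l: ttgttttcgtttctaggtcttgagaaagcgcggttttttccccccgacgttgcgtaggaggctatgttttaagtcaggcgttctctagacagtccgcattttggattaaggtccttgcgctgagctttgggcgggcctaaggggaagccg
Atp5g1: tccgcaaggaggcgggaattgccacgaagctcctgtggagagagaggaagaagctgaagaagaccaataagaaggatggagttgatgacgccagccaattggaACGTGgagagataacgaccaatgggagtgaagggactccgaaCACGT
Sdhb: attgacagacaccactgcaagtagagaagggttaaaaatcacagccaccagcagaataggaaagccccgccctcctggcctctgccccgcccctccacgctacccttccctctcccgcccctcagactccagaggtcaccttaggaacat
The capitals in Atp5g1 are the core of the hypoxia response element, ACGTG, at 86 to 82 bases before the start on the gene's strand and at 44 to 40 on the other, and the other 3 stretches hold no match to any motif searched.

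The motif search covered the 64 of 80 genes with a RefSeq window, both strands, in the 250 bases before the start, and all 27025 genes with a window. The NRF1 core GCGCATGCG, the site of a known activator of respiratory genes, was in 6 of 64 windows (9.38%; Atp5g2, Atp5k, Atp5l, Cox6a1, Ndufa11 and Ndufa8) and in 1.49% of all. The ETS core CCGGAAG was in 11 of 64 (17.2%) and in 7.05% of all. The hypoxia response core ACGTG was in 12 of 64 (18.8%) and in 16.6% of all, close to the share of all windows. The YY1 core AAGATGG was in 0 of 64 and in 4.53% of all, but with the 50 bases after the start included it was in 9 of 64 (14.1%) and 6.48%. With those bases the ETS core was in 15 of 64 (23.4%) and 9.12% of all, Sdhb among the 15, and the hypoxia response core in 15 of 64 (23.4%) and 19.7%, Ndufv3 among them. The ETS core ends in AAG, the letters with which the YY1 core begins, so the same stretch can match both. A match describes these letters and is not a bound site.

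Between the OX40 agonist and control libraries the chain differed by small amounts. The ratio of the summed shares, treated over control, was 1.05 (1.05 to 1.06) in CD8 T cells, 1.04 (1.04 to 1.05) in melanoma cells and 1.04 (1.03 to 1.06) in regulatory T cells. It was 1.02 (1.00 to 1.04) in NK cells, 1.01 (0.994 to 1.02) in mature migratory DCs, 1.01 (0.994 to 1.03) in type 2 conventional DCs and 0.994 (0.991 to 0.997) in mononuclear phagocytes. The phagocytes were not uniform: the ratio was 1.04 (1.03 to 1.05) in classical monocytes, which numbered 613 and 661 and went from 2.36% to 2.45%, 1.01 (0.999 to 1.03) in Arg1 macrophages and 0.980 (0.976 to 0.984) in C1q macrophages. The 7 types are those with at least 100 cells in each library, and differences between the 2 pools of mice cannot be told apart from the treatment.

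In CD8 T cells 59 of 74 genes were higher in the treated library, with a median log2 ratio of 0.07 beside -0.03 over all genes, of which 39.2% were higher. No gene passed the threshold of 0.32 in either direction, where 1.86% of all genes did. Ndufa4 was furthest, at 436 CPM in the treated and 362 in the control library, and Ndufs1, the largest core subunit of complex I, was on the other side at 33.0 against 36.3. The 14 cell cycle genes were all lower in treated CD8 T cells, at 1765 against 1983 CPM summed, and their part in this was not tested. In melanoma cells 57 of 75 were higher, median 0.05 beside 0.03, and none passed, where 3.54% of all genes did. Atp5o stood at 969 against 788 CPM, Cox7b at 1248 against 1031, and Ndufv3 at 725 against 819. In the same cells the hypoxia list was lower in 11 of 12 genes, at 1445 against 2081 CPM summed, and all 9 genes of an interferon-gamma response list were lower, at 237 against 743. The part of these in the values was not tested.

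In regulatory T cells 45 of 74 were higher and 3 passed, where 22.3% of all genes did at this depth. They were Ndufa6, at 222 against 165 CPM, Ndufs6, at 187 against 143, and, lower, Ndufs1. In NK cells 3 of 74 passed, where 26.9% of all did. Among them Atp5f1 stood at 311 against 392 CPM and Ndufa12 at 129 against 165. In type 2 conventional DCs 5 of 75 passed (Ndufs1, Ndufb11 and Ndufa1 higher, Ndufs3 and Cox6b2 lower), where 25.7% of all did. Ndufb11 stood at 282 against 214 CPM, a difference that was 0.00 on the log2 scale with thinned cells, and Ndufs3 at 96.4 against 145. In each of these 3 types the share of chain genes that passed was below that of all genes, whose levels were lower, with a median of 34.6 CPM against 263 for the chain genes in regulatory T cells. In mature migratory DCs 0 of 74 passed, where 10.8% of all did. With cells thinned to 1000 UMIs, where few UMIs remain per gene, between 18 and 25 passed in each of these 4 types. In mononuclear phagocytes 1 of 76 passed, Cox7a1 at 12.6 against 7.89 CPM from 386 and 236 UMIs, where 5.60% of all did. On the other side of that type Cox4i2 stood at 17.1 against 23.0 CPM, and within C1q macrophages alone at 19.6 against 27.2, but the log2 ratio in phagocytes turned to 0.20 with thinned cells.

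Of the 74 genes tested in all 7 types, 9 (12.2%) were higher in the treated library in every type, where 2.54% of the 4717 genes so tested were, and 0 were lower in every type, where 4.90% were. Ndufa4 was among the 9, with log2 ratios between 0.03 and 0.26, and so was Ndufa3, between 0.04 and 0.21. Ndufa7 was counted although its log2 ratio in NK cells was 0.00. Of the others, Ndufb2 reversed in CD8 T cells and Atp5k in regulatory T cells when cells were thinned. Genes in general stood at lower levels, with a median of 34.6 CPM against 263 for the chain genes tested in regulatory T cells. The shares were not compared at matched levels. In neutrophils, with 41 and 111 cells and depths of 1814 and 1402 UMIs, 59 of 73 genes stood below their control level, at a median log2 ratio of -0.47 beside -0.15. They are given as values only, since few cells were available, and ribosomal protein genes were lower in them as well, at 5.09% against 7.91% of UMIs.

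**Figure D5:**
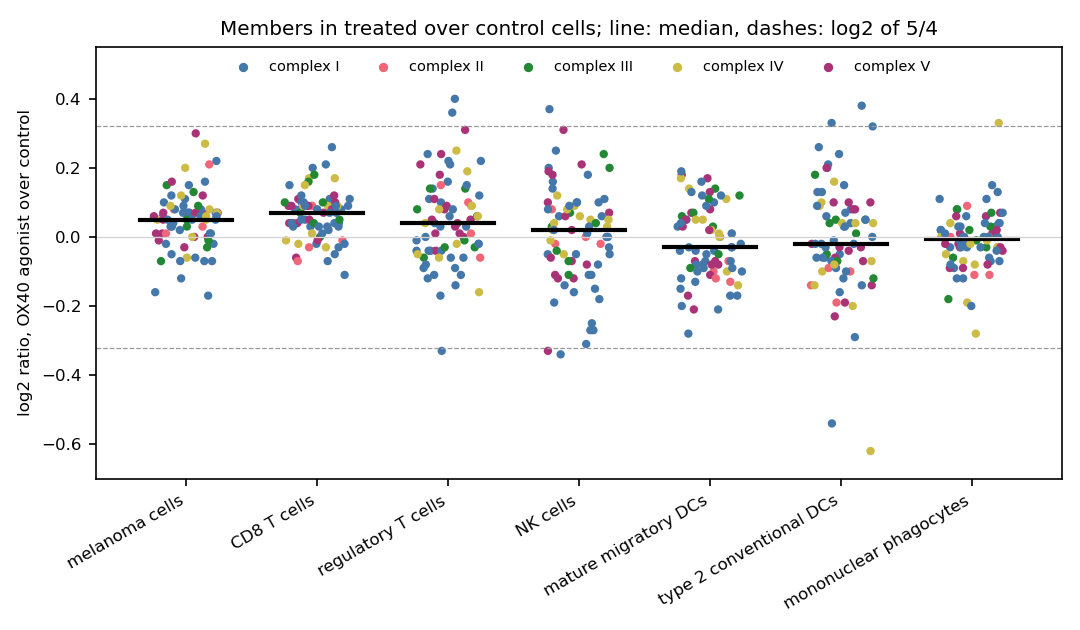
Log2 ratio of the OX40 agonist over the control library for each gene in 7 cell types, each point a gene, with a line at the median and dashes at 0.32 up and down. Medians lie between -0.03 in mature migratory DCs and 0.07 in CD8 T cells.

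Among genes that the name rule does not take in, those whose level over the 7 types and 2 libraries was most like the summed chain were mitochondrial ribosomal proteins and factors of several other kinds, with Cyc1, itself a subunit of complex III. Over these 14 points, which share libraries and depth, Pearson's r of log2 levels was 0.992 for Mrpl51, 0.985 for Pebp1, 0.984 for Phb2, 0.984 for Pdap1, 0.982 for Mrps33, 0.981 for Mrpl12, 0.977 for Uqcc2, 0.976 for Psmd11, 0.976 for Eif2s2 and 0.972 for Cyc1, among 1112 genes at 50 CPM or more in every type. The summed share was 4.48% and 4.67% in melanoma cells, and 2.71% and 2.85% in CD8 T cells, the next type. The melanoma points therefore weigh heavily in every r given here. Within the chain Uqcr10 (0.993), Atp5a1 (0.983) and Ndufa10 (0.982) were most like the sum. Cox6b2 (-0.436), Cox7a2l (-0.199) and Cox4i2 (-0.0825) were least like it, and these 3 belong to complex IV by name.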

How the data were processed

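The deposited matrices hold UMI counts per gene and barcode, whole numbers without normalization; per the file headers they were written by software version 3.1.0, and Cell Ranger and build mm10 are named in the submitters' processing notes. Each group is 1 library. Barcodes were required to have at least 500 UMIs, 200 genes and no more than 10% mitochondrial UMIs (6354 of 7187 control, 7500 of 8569 treated). A doublet score as in Scrublet (2 simulated doublets per cell, 2000 genes, 30 components, 30 neighbours) removed 323 and 450 barcodes at 0.8% per 1000. Cell types were gated on marker UMIs per 10000, with thresholds set after the files were seen and no chain gene used; 13.4% and 12.8% of cells stayed ungated. Of the 773 barcodes removed as doublets, 71.7% met no gate.

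UMIs were summed per type and library. A gene was tested at 10 CPM or more in either group, log2 ratios add 10 CPM, and a call needed 1.5-fold between types or macrophage states and 0.32 on the log2 scale otherwise. Shares carry exact Clopper-Pearson intervals, CPM exact Poisson intervals and ratios exact conditional intervals; PCR and cell-to-cell variation are not in them. Named genes were the 3 highest and 3 lowest with at least 100 UMIs in each comparison, the 3 most and 3 least type-specific, all isoform pairs and the 10 most similar nonmembers. Sdhb, Ndufv3, the role groups within complexes and other genes named beside them were chosen after their values were seen. The members and lists were chosen with earlier results of these data known. Positions are from GENCODE vM21; 6 members (Ndufb2, Ndufa13, Cox4i1, Ndufb9, Atp5o and Ndufb8) overlap another coding gene on the same strand, so their counts are uncertain. One item is not reported here. The calculation was tested on simulated data. Python 3.11.15, numpy 2.4.6, pandas 2.3.3, scipy 1.17.1, scikit-learn 1.9.0 and matplotlib 3.10.9 were used.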

Additional observations from a re-analysis of the deposited data

Results flagged for a closer look

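Ndufs1, the largest core subunit of complex I, differed in opposite directions between the libraries in 2 cell types on few UMIs. Its log2 ratio of treated over control was -0.33 in regulatory T cells and 0.33 in type 2 conventional DCs, and the difference was not tested. The ratio itself was 0.738 (0.474 to 1.15) in regulatory T cells, from 45 and 42 UMIs, and 1.36 (0.844 to 2.22) in type 2 conventional DCs, from 44 and 32. Both counting intervals include 1.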

How the results depend on the processing

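No paired analysis was possible because each group is 1 library. Alternatives gave 240 counts and 2192 ratios and levels. Of the counts 206 stayed within 1.5 times and 34 did not, and a count has no direction that could reverse. Of the others 1725 kept direction and size, 440 moved by more than the counting interval and 27 reversed. Limits of 5% mitochondrial UMIs or 1000 UMIs per cell and keeping doublets moved no count.

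Thinning each cell to 1000 UMIs moved the count of genes past the fold to 10 lower in mature migratory DCs, to 5 higher and 0 lower in cycling CD8 T cells, and, treated over control, to 3 in melanoma cells, 1 in CD8 T cells, 19 in regulatory T cells, 21 in NK cells, 18 in mature migratory DCs and 25 in type 2 DCs. At that depth few UMIs remain per gene. It also left 0 complexes higher in phagocytes and in hypoxia-high cells. The mean over cells gave 1 gene higher and 0 complexes in phagocytes, 7 higher in cycling cells, 7 in treated NK cells and 1 in treated migratory DCs. Leaving mitochondrial and ribosomal genes out of the denominator gave 1 higher, 7 lower and 0 complexes higher in phagocytes and 1 higher in cycling cells. Gate thresholds were doubled for cell types and not for macrophage states. This gave 1 complex higher in migratory DCs, 11 genes lower in Arg1 macrophages, 1 lower in cycling cells, and, treated over control, 1 in regulatory T cells, 5 in NK cells and 3 in type 2 DCs. A pseudocount of 1 CPM gave 6 in NK cells, 1 in migratory DCs and 2 in phagocytes, no filter gave 5 in NK cells, and a 20% mitochondrial limit gave 3 in type 2 DCs and 0 in phagocytes. Among groupings chosen after seeing the data, leaving out Uqcrh gave 2 complexes higher in phagocytes, and counting Ndufa4 and Ndufa4l2 in complex IV left 0 in hypoxia-high cells. The causes were not tested.

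Values that reversed under thinning were Atp5e in melanoma over CD8 T cells (0.01, control), the complex II ratio in phagocytes (0.966, treated), complex III in cycling cells (1.06, treated), complex IV in hypoxia-high cells (0.998, control), and, treated over control, Ndufb2 in CD8 T cells (-0.23), Cox6b1 (0.03) and Atp5k (-0.50) in regulatory T cells, Ndufb11 in type 2 DCs (0.00), Cox4i2 (0.20) and the summed share (1.00) in phagocytes. With the mean over cells they were Atp5e (0.03 and 0.01), complex II in phagocytes (0.985, treated) and their treated over control share (1.00). Without mitochondrial and ribosomal genes they were complex II in phagocytes (0.975 and 0.926), complex IV in cycling cells (0.990 in both libraries), the summed share in treated hypoxia-high cells (1.00) and that of phagocytes, treated over control (1.01). With doubled gates it was complex IV in control migratory DCs (1.02). Without Uqcrh they were complex III in phagocytes (1.10 and 1.05) and in cycling cells (1.09 and 1.06), and with Ndufa4 in complex IV, in hypoxia-high cells, complex IV (0.990, control) and complex I (1.01, treated).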
